A study of Homo sapiens with 9 samples.

Results

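Small nuclear and small nucleolar RNA genes were followed in HMEC-1, a cell line made from endothelium of small vessels of the human skin, after exposure to a pair of methyltransferase inhibitors. Genes were chosen by name, and through the row-mean filter described next by their counts, as every row whose symbol begins SNORA, SNORD, SCARNA, RNU or RN7S with its number, is a U followed by digits, or is RMRP or RPPH1. Of 18690 rows in the deposited count tables, 119 matched, and 4 of these repeated the counts of another matching row, which left 115 distinct genes. The groups were AMI-1 at 100 µM, AMI-5 at 100 µM and the solvent DMSO alone as control, each for 16 h in medium with 5.5 mM glucose, with 3 libraries per group and 9 in all. AMI-1 is a urea that joins naphthol sulfonic acids, and AMI-5 a brominated xanthenyl benzoate. RNA was enriched for poly-A before sequencing, and no source says that the 3 libraries of a group were separate cultures, so p-values measure only the spread between these libraries.

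Each compound has its own table with the same control libraries, and each table keeps only genes whose mean over its 6 libraries is at least 10. Which genes are described is thus decided by name and by mean count, and the group was proposed with results of these data known. Of the 115 genes, 95 were in both tables, 4 only in the AMI-1 table and 16 only in the AMI-5 table. The 95 were tested. The other 20 were not, because a gene enters a single table through that compound's own counts. The lowest row means were those of SNORA77 (10), SNORD89 (10) and SNORA76 (10.2) in the AMI-1 table, and of SNORD116-4 (10), SNORD58C (10) and SNORD12 (10.3) in the AMI-5 table.

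Small nuclear RNAs (snRNAs) pair with pre-mRNA and with one another in the spliceosome, except U7, which directs the cutting of histone pre-mRNA. Box C/D small nucleolar RNAs (snoRNAs) guide the methylation of ribose in ribosomal RNA and box H/ACA snoRNAs guide the conversion of uridine to pseudouridine, while scaRNAs do the same for snRNAs in Cajal bodies. U3 and U8 are box C/D RNAs that act in the cutting of the ribosomal RNA precursor. Most human snoRNAs are trimmed from the introns of host genes, whereas U1, U2, U3, U4, U7 and U8 have promoters of their own and are transcribed by RNA polymerase II, with ends formed by the Integrator complex. RMRP, RPPH1, the 7SL RNAs and U6 are made by RNA polymerase III. Mature forms of these RNAs mostly lack a poly-A tail, so the counts are of what poly-A enrichment left in the libraries.

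The sequences below are those of the U3 and U8 genes, shown because both tested genes rose with AMI-5 and because the U3 copies are nearly identical. All are GENCODE 29 transcripts on GRCh38, printed 5′ to 3′, with capitals for box C (TGATGA) and box D (CTGA).
SNORD3B-1: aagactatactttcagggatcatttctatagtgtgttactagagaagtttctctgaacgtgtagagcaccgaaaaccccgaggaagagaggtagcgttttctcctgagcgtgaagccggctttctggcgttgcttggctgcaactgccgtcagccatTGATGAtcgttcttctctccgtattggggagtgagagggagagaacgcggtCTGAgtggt
SNORD3A: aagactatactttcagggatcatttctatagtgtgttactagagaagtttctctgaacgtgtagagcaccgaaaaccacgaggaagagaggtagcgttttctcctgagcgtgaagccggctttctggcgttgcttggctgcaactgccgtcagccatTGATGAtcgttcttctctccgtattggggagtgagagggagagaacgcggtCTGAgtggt
SNORD118: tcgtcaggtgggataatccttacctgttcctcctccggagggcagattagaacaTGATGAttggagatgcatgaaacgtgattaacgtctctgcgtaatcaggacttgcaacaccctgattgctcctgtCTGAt
U8 copy RF00096: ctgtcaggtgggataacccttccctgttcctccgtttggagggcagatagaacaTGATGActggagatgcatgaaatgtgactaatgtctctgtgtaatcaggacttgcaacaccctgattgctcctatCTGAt
The U3 transcripts of SNORD3B-1 and SNORD3A shared 216 of 217 bases, with the single change C78A counted from the 5′ end of SNORD3B-1, and those of SNORD3B-1 and SNORD3B-2 shared 217 of 217. SNORD118 and the U8 copy RF00096 were 89.6% identical over an alignment of 135 positions. Reads from such copies cannot be assigned with certainty, so each U3 row is uncertain on its own. GENCODE 29 also gives the 3 U3 genes longer transcripts of 699 to 791 nucleotides, so a read counted there need not lie in the U3 RNA itself.

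The snRNA genes shown next are RNU2-2P, whose row rose with AMI-5, and RNVU1-14, RNU1-59P and RNU7-1. The last 3 were in the AMI-5 table only, entered through their AMI-5 counts and were not tested. Of these, RNVU1-14 and RNU1-59P overlapped control in CPM (normalised counts relative to library size). Capitals mark ATTTNTG, a core form of the site that Sm proteins bind, or in RNU7-1 the letters TTGTCTA within the U7 form of that site.
RNU2-2P: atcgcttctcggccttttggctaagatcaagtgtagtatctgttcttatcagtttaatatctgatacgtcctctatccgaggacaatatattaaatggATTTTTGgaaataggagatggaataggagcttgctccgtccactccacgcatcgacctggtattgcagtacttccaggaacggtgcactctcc
RNVU1-14: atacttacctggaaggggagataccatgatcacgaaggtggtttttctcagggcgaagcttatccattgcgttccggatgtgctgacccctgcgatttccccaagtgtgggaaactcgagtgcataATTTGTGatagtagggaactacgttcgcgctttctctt
RNU1-59P: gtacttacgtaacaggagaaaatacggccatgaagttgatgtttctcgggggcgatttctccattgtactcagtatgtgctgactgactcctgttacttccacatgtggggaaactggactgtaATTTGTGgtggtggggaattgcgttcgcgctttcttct
RNU7-1: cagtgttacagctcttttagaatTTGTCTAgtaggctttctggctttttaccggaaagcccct
RNVU1-14, a variant U1 gene, and RNU1-59P, a U1 pseudogene, were 71.6% identical over 169 aligned positions. RNU2-2P, the reference name of the RNU2-2 row, was 92.7% identical to RNU2-59P over 191. All motifs were sought on the transcript strand only, and CTGA was counted also where it overlaps TGATGA. The letters TGATGA were in 5 of 5 U3 and U8 genes and in 32 of 49 box C/D snoRNAs, against 7.96% of 9095 GENCODE transcripts of 60 to 220 nucleotides. CTGA was in 5 of 5 and 48 of 49, against 50.9%, and ATTTNTG in 5 of 8 U1, U2, U4 and U7 genes, against 8.97%. TTGTCTA was in 2 of those 8 genes, against 1.70%.

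Counts were low. The 95 genes averaged 9.78 to 122.2 reads per library, with a median of 23.2, against a median of 330.1 over all 18284 genes tested, and 12 of the 95 averaged at least 50. Total counts per library were 14454113 to 24693020. Of the endothelial markers, 9 of 11 were tested, with summed levels of 910.2 to 1174.1 CPM (normalised counts relative to library size) in AMI-1 libraries, 698.9 to 966.3 in AMI-5 libraries and 842.5 to 1232.1 in control libraries, while PECAM1 and CLDN5 were not among the genes tested. Fibroblast and smooth muscle markers summed over 6 of 8 genes to 2936.4 to 3950.9 CPM in AMI-1 libraries, 2267.8 to 3006.2 in AMI-5 libraries and 2792.2 to 4253.9 in control libraries. The epithelial keratins KRT8, KRT18 and KRT19 were the 3 of 5 epithelial markers tested, and summed to 200.9 to 411.6 CPM per library. Of 4 leukocyte markers only CD14 was tested, at 1.57 to 2.91 CPM. In bulk RNA, fewer cells and less RNA per cell cannot be told apart.

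Tests used edgeR's quasi-likelihood F test over all genes, with Benjamini-Hochberg adjustment and a threshold of 0.05. Without a term for replicate number it called 0 of the 95 genes in each of the 3 comparisons, with 0.0% of all genes called. At an unadjusted p under 0.05 it held 1 of the 95 for AMI-1 against control, 5 for AMI-5 against control and 3 for AMI-5 against AMI-1, among 187, 485 and 478 of all genes. DESeq2's Wald test without a block called SNORD3B-1 alone for AMI-5 against control and, likewise, against AMI-1, with 0.109% and 0.197% of all genes called. Its filter on mean counts left 36 of the 95 with an adjusted p for AMI-5 against control and 95 for AMI-5 against AMI-1. For AMI-1 against control it called none of the 95, with 0.0164% of all genes called. Libraries with the same replicate number deviated together, so the calls, fold changes and adjusted p-values that follow are from the fit with replicate number as a block, unless stated. "Rose" and "fell" refer to its calls.

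With AMI-1, 0 of the 95 genes were called against control, with 0.41% of all genes called, and 10 had an unadjusted p under 0.05, as did 1851 of all 18284 genes. With AMI-5, 3 rose and 1 fell against control, where 10.9% of all genes were called (3.44% higher and 7.51% lower). Between the compounds, 5 were higher and 1 lower with AMI-5 than with AMI-1, where 5.1% of all genes were called (1.62% higher and 3.48% lower). The comparisons share libraries and are not independent of each other. With a correction for GC content added to the block, SNORD49A and RN7SL2 were called lower with AMI-1 against control, where 3.48% of all genes were called (2.15% lower), and 4 and 6 of the 95 were called in the AMI-5 comparisons, where 13.5% and 11.9% of all genes were.

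Without any fit, CPM of the libraries did not overlap in 1 gene above and 1 below control with AMI-1, where 1.94% and 2.06% of all genes were so. With AMI-5 this held for 3 above and 4 below control (3.98% and 3.36% of all genes), and against AMI-1 for 6 above and 1 below (4.21% and 3.28%). Pairs of the same replicate number went the same way in 3 of 3 for 5 genes higher and 22 lower with AMI-1 (14.4% and 15.7% of all genes), and for 18 higher and 17 lower with AMI-5 (24.8% and 28.8%). Between the compounds, 24 were higher and 13 lower with AMI-5 (16.7% and 18.5%).

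**Figure D1:**
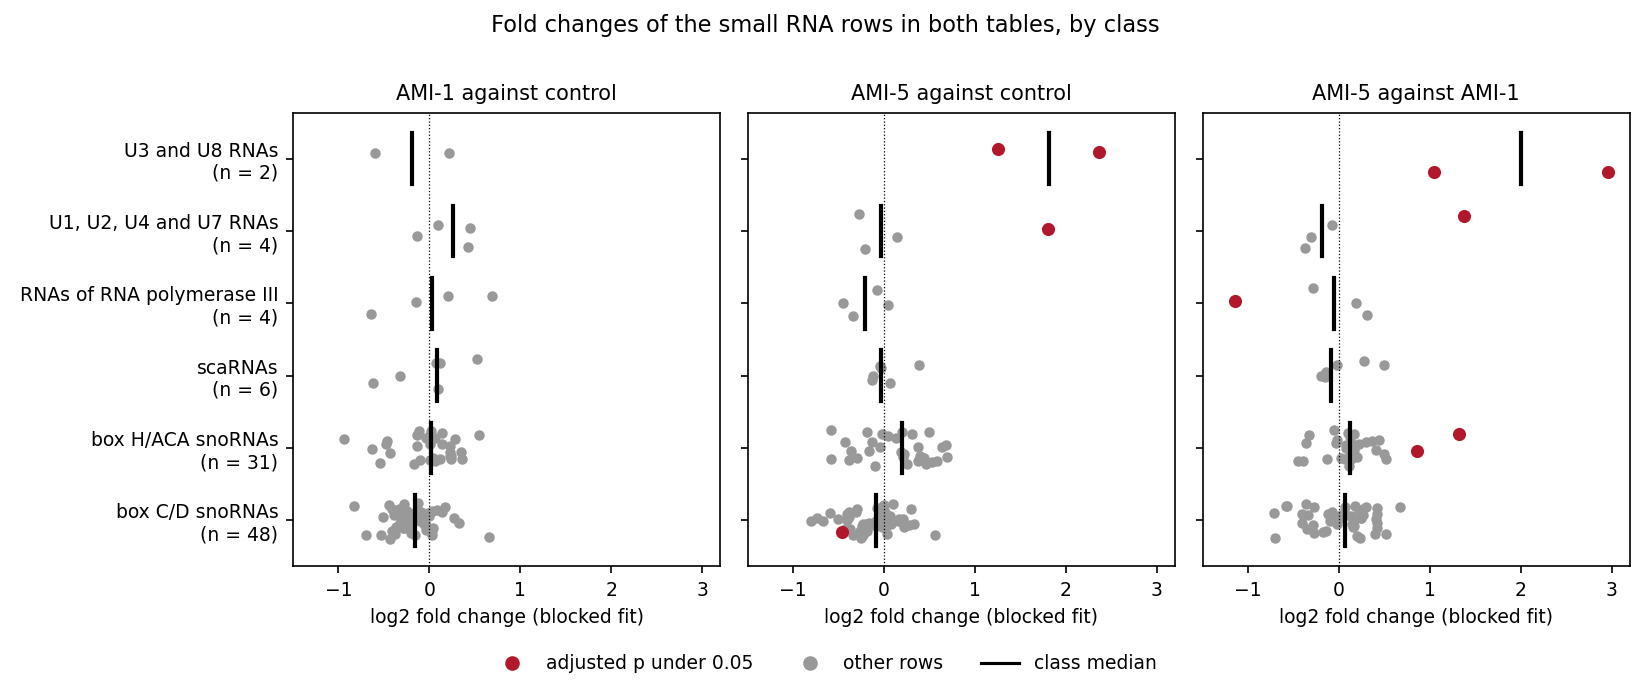
Log2 fold changes of the 95 genes present in both tables, from the fit with the replicate block, for each compound against control and for AMI-5 against AMI-1. Each point is a gene placed in its class, red points passed an adjusted p of 0.05, and black bars are class medians; SNORD3B-1, RNU2-2 and SNORD118 stand to the right of the other genes for AMI-5 against control, and SNORD3B-1 lies furthest right for AMI-5 against AMI-1.

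The U3 gene SNORD3B-1 changed most. Its counts in replicates 1, 2 and 3 were 6, 20 and 8 with AMI-1, 140, 62 and 90 with AMI-5, and 13, 20 and 17 in control. Every AMI-5 library was above every other library, and the AMI-1 and control libraries overlapped. SNORD3B-1 rose 5.14-fold with AMI-5 against control (log2 2.36 ± 0.25 SE, adjusted p = 3.72e-05) and was 7.78-fold higher with AMI-5 than with AMI-1 (log2 2.96 ± 0.28, adjusted p = 3.25e-06). With 1 library left out the difference between the compounds ran from log2 2.65 to 3.69, the highest without AMI-1 replicate 2. Against control, AMI-1 gave a log2 fold change of -0.60 ± 0.39 (adjusted p = 0.637). DESeq2 without the block gave adjusted p-values of 0.00161 for AMI-5 against control and 4.95e-06 for AMI-5 against AMI-1.

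SNORD118, the gene of U8, had 24, 29 and 24 reads with AMI-1, 56, 58 and 52 with AMI-5, and 14, 23 and 27 in control. The AMI-5 libraries were again the highest, with no overlap. SNORD118 rose 2.39-fold with AMI-5 against control (log2 1.26 ± 0.22, adjusted p = 0.00177) and was 2.06-fold higher with AMI-5 than with AMI-1 (adjusted p = 0.00632). In the second comparison the call was lost when AMI-5 replicate 1 or AMI-5 replicate 2 was left out, with adjusted p up to 0.0791. In the reference SNORD118 overlaps an exon of TMEM107 on the same strand, and TMEM107, which encodes a membrane protein of the cilium, also rose with AMI-5 (log2 0.48 ± 0.10, adjusted p = 0.00517). Its part in the SNORD118 count was not tested.

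The remaining U3 and U8 rows were in the AMI-5 table only, so their AMI-1 counts are not analysed here. Their entry through AMI-5 counts in part sets the difference from control, which was not tested. SNORD3B-2, whose U3 transcript is identical to that of SNORD3B-1, had 121, 11 and 69 reads with AMI-5 and 13, 4 and 8 in control. In replicate 2 the AMI-5 count lay within the range of the control counts. SNORD3A had 36, 25 and 17 reads with AMI-5, against 4, 7 and 4 in control. The U8 copy RF00096 had 16, 19 and 21 with AMI-5, against 4, 4 and 2 in control. For SNORD3A and RF00096 the groups did not overlap.

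Because near-identical copies may share reads, which was not tested, the rows were also summed, a step chosen after the values were seen. The 3 U3 rows together had 297, 98 and 176 reads with AMI-5, against 30, 31 and 29 in control. This was 13.95, 6.57 and 7.43 CPM with AMI-5 and 2.01, 1.87 and 1.25 CPM in control. The sums leave no overlap, with replicate 1 the highest of the AMI-5 libraries and the control libraries close to each other. By the row-mean filter, the AMI-1 libraries can have held at most 112 reads of these rows in total, against 571 with AMI-5 and 90 in control. The U8 rows summed to 72, 77 and 73 reads with AMI-5, against 18, 27 and 29 in control. Since the added rows entered through their AMI-5 counts, no test was made of these sums.

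**Figure D2:**
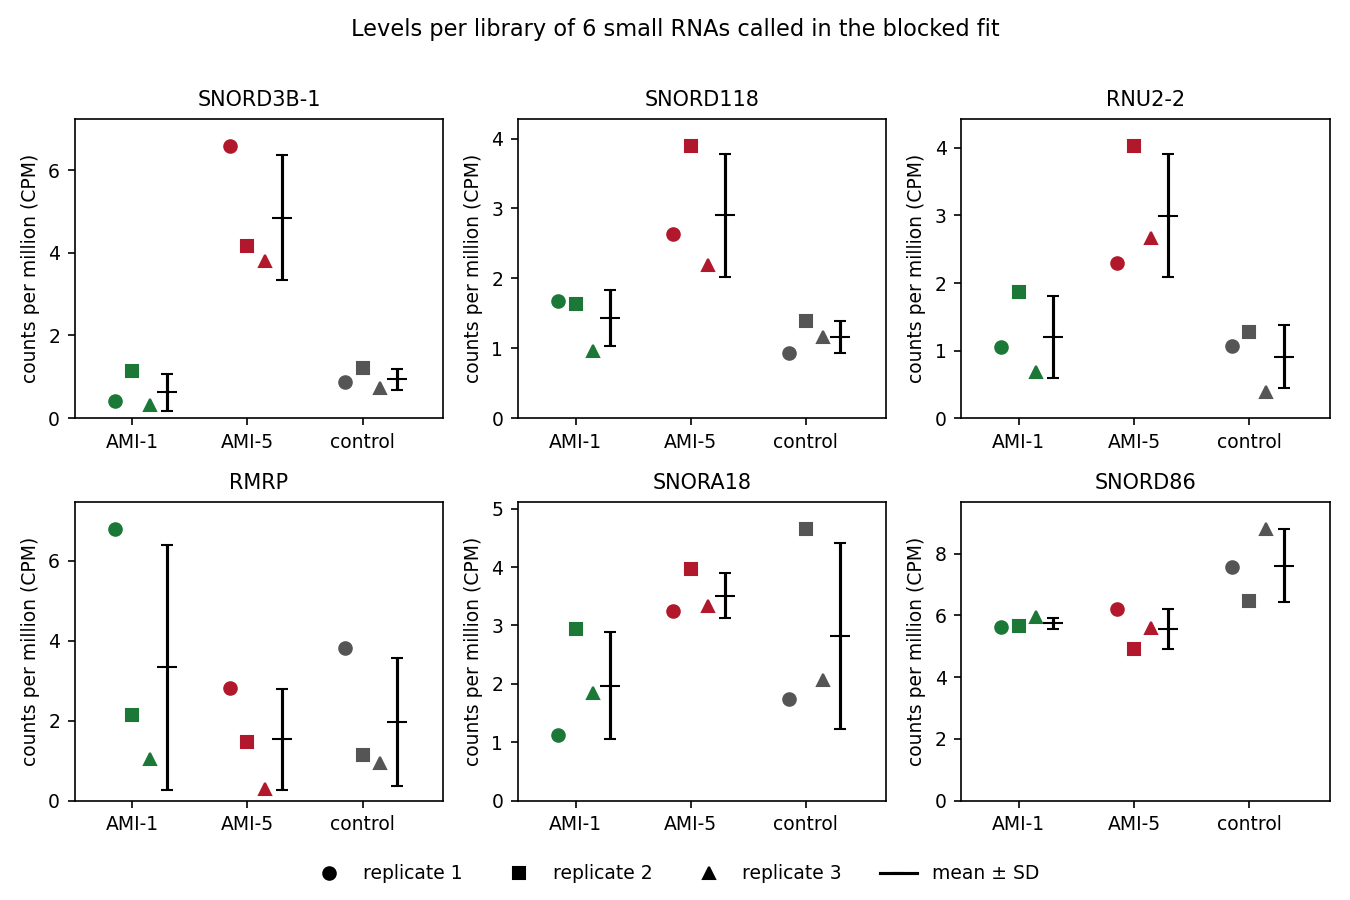
CPM in each library of 6 genes called in the blocked fit, with AMI-1, AMI-5 and control from left to right; symbols mark replicate numbers and bars the mean ± SD of 3 libraries. SNORD3B-1, SNORD118 and RNU2-2 have all 3 AMI-5 libraries above the rest, whereas RMRP is highest in replicate 1 and lowest in replicate 3 in every group.

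RNU2-2, a U2 gene, had 15, 33 and 17 reads with AMI-1, 49, 60 and 63 with AMI-5, and 16, 21 and 9 in control. All AMI-5 libraries lay above all others. It rose 3.49-fold with AMI-5 against control (log2 1.80 ± 0.26, adjusted p = 0.000499) and was 2.59-fold higher with AMI-5 than with AMI-1 (log2 1.37 ± 0.24, adjusted p = 0.00209). RNU2-2 overlaps an exon of WDR74 on the same strand, a gene of ribosome assembly, and WDR74 fell with AMI-5 (log2 -0.40 ± 0.08, adjusted p = 0.00404). The small RNA row and the overlapping gene thus moved in opposite directions.

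The other tested rows of this class were not called. The U2 pseudogene RNU2-27P had 8, 14 and 15 reads with AMI-1, 9, 10 and 17 with AMI-5, and 10, 14 and 15 in control. RNU4-5P, a U4 pseudogene, averaged 1.28 ± 0.21 CPM with AMI-1, 0.982 ± 0.334 with AMI-5 and 1.16 ± 0.63 in control (SD, n = 3 each). The U7 pseudogene RNU7-111P averaged 1.20 ± 0.14 CPM with AMI-1, 0.955 ± 0.095 with AMI-5 and 0.862 ± 0.167 in control.

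Another 5 U1, U2 and U7 rows were in the AMI-5 table only. They entered through their AMI-5 counts, so counts above control are in part set by that entry and were not tested. RNU7-1, the gene of the U7 RNA itself, had 16, 35 and 30 reads with AMI-5, against 2, 11 and 4 in control, a 4.49-fold ratio of mean CPM without overlap. RNU7-1 overlaps an exon of C12orf57 on the same strand in the reference, and C12orf57 fell with AMI-5 (log2 -0.49 ± 0.08, adjusted p = 0.00164). RNVU1-14 had 59, 20 and 14 reads with AMI-5, against 8, 11 and 8 in control, where the counts did not overlap but the CPM did. RNU1-59P had 27, 19 and 24 with AMI-5, against 3, 20 and 2 in control, so control replicate 2 reached the AMI-5 range.

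A U1 row with no name in the reference had 21, 19 and 19 reads with AMI-5, against 0, 5 and 3 in control. RNU2-59P had 16, 14 and 7 with AMI-5, against 9, 13 and 7 in control, so the groups overlapped. The ratio of mean CPM over these 5 rows ran from 1.17 to 7.09. In the AMI-1 libraries the filter allows at most 30 to 51 reads in total per row. U1 has many copies in the genome, and these rows are uncertain, since the strand and mapping rules of the counting are not given.

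**Figure D3:**
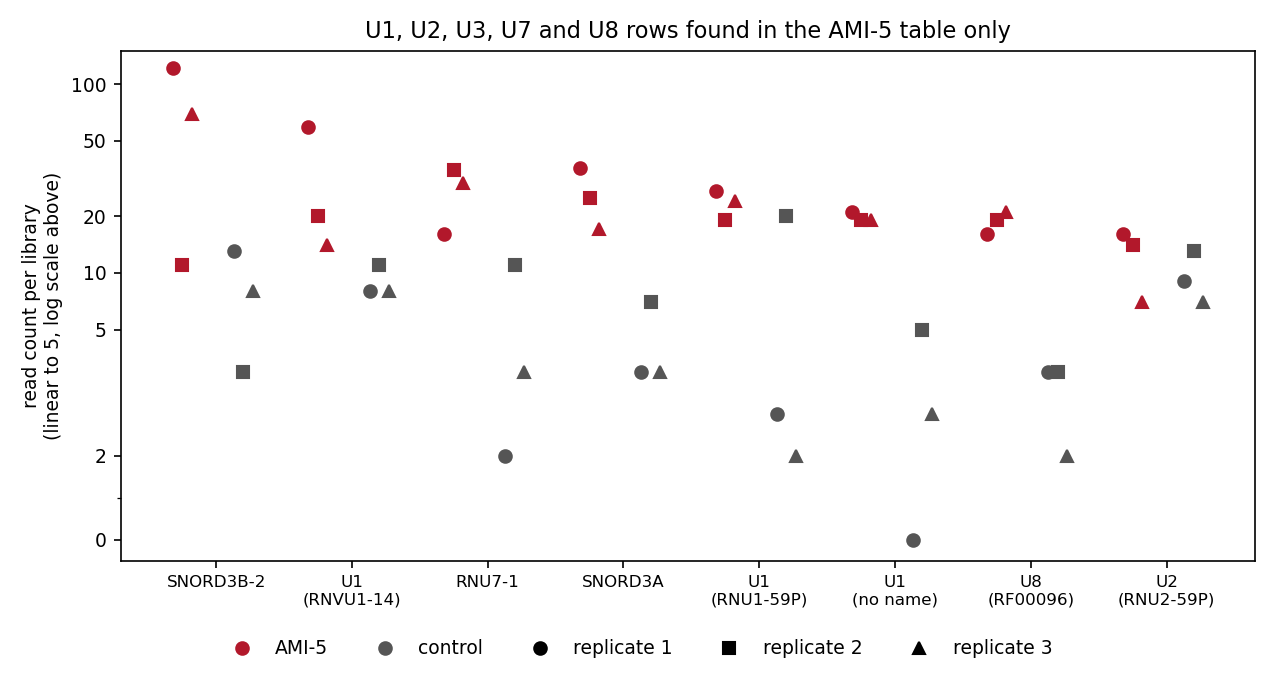
Read counts per library of the 8 U1, U2, U3, U7 and U8 rows found in the AMI-5 table only, AMI-5 in red left of control in grey, with replicate numbers as symbols and a vertical axis that is linear up to 5 and logarithmic above. RNU7-1, SNORD3A, the unnamed U1 row, RF00096 and RNVU1-14 have every AMI-5 count above every control count, and RNU2-59P does not. In CPM, RNVU1-14 overlapped control. All rows shown entered through their AMI-5 counts, so separation from control is in part set by that entry.

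The other 8 rows of the AMI-5 table alone were guide snoRNAs, SNORD12, SNORD45B, SNORD58C, SNORD73A, SNORD77, SNORA21 and both rows of SNORD87. Their ratios of mean CPM, AMI-5 over control, were 0.646 to 1.84. SNORD12 was the lowest, with 9, 8 and 9 reads with AMI-5 and 11, 15 and 10 in control. The 4 rows of the AMI-1 table alone, SNORD32A, SNORD35B, SNORD50 and SNORD69, had AMI-1 over control ratios of 0.896 to 1.31. CPM of the tested compound did not overlap control from above in 4 of the 16 AMI-5 rows and 0 of the 4 AMI-1 rows. Among all genes tested that share was 3.98% with AMI-5 and 1.94% with AMI-1, but nothing can be read from it, since these rows entered through the compound's counts.

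Of the 4 rows classed by name under RNA polymerase III, RMRP, RPPH1 and RN7SL2 varied more by replicate number than by treatment. The U6 row did not. RMRP, the RNA of RNase MRP, which cuts the ribosomal RNA precursor, had 97, 38 and 26 reads with AMI-1, 60, 22 and 7 with AMI-5, and 57, 19 and 22 in control. All 3 groups overlapped and replicate 1 was the highest in each. RMRP was lower with AMI-5 than with AMI-1, at 0.454 of its level (log2 -1.14 ± 0.23, adjusted p = 0.00684), and lower in 3 of 3 pairs. The call was lost without AMI-1 replicate 1 or AMI-5 replicate 1, with adjusted p up to 0.218. Against control, its log2 fold changes were 0.69 ± 0.22 with AMI-1 (adjusted p = 0.261) and -0.45 ± 0.25 with AMI-5 (adjusted p = 0.268).

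RN7SL2, an RNA of the signal recognition particle, had 100, 9 and 92 reads with AMI-1, 133, 10 and 148 with AMI-5, and 152, 19 and 136 in control. Replicate 2 held far fewer reads than replicates 1 and 3 in all 3 groups. The log2 fold change of RN7SL2 with AMI-1 against control was -0.65 ± 0.18 (adjusted p = 0.163). The row named RPPH1 had 26, 12 and 18 reads with AMI-1, 31, 9 and 33 with AMI-5, and 28, 9 and 24 in control. By its identifier, that row is AL355075.4 in GENCODE 29, opposite PARP2, so it cannot be equated with the RNA of RNase P. A U6 row, RNU6-395P by its identifier, lies opposite POLR2D and was not called.

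Box H/ACA snoRNAs gave 2 calls among 31 tested, both between the compounds, where 5.1% of all genes were called. SNORA18 had 16, 52 and 46 reads with AMI-1, 69, 59 and 79 with AMI-5, and 26, 77 and 48 in control. It was 1.82-fold higher with AMI-5 than with AMI-1 (log2 0.86 ± 0.21, adjusted p = 0.0218), a call lost without AMI-1 replicate 1 or AMI-5 replicate 1, with adjusted p up to 0.196. The AMI-5 libraries of SNORA18 lay above all AMI-1 libraries in CPM and overlapped control. SNORA16A had 5, 17 and 5 reads with AMI-1, 20, 28 and 20 with AMI-5, and 10, 20 and 10 in control. It was 2.51-fold higher with AMI-5 than with AMI-1 (adjusted p = 0.0155), lost without AMI-1 replicate 1, AMI-5 replicate 1 or AMI-5 replicate 2, with adjusted p up to 0.0984.

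The H/ACA genes had a median log2 fold change of 0.02 with AMI-1 and 0.20 with AMI-5 against control, beside -0.0019 and -0.0050 over all genes. With AMI-5, 10 of 31 were higher in 3 of 3 pairs and 3 were lower, where 24.8% of all genes were higher and 28.8% lower in that sense. SNORA40 had the largest such difference among genes of at least 50 reads, with 49, 68 and 68 reads with AMI-5 against 19, 66 and 39 in control (log2 0.52 ± 0.20, adjusted p = 0.0933). SNORA73A and SNORA73B, whose RNA is also called U17 and acts in ribosomal RNA cutting, were not called. SNORA73A averaged 2.92 ± 0.55 CPM with AMI-1, 2.64 ± 0.54 with AMI-5 and 2.95 ± 0.29 in control (SD, n = 3 each). SNORA67 had 49, 113 and 78 reads with AMI-1, 65, 65 and 65 with AMI-5, and 46, 70 and 92 in control.

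SNORD86, the box C/D snoRNA called against control, is shown with box D in capitals.
SNORD86: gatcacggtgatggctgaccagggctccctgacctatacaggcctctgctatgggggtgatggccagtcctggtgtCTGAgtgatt
SNORD86 holds no exact TGATGA. Among box H/ACA transcripts matched, an ACA followed by 3 last bases ended 19 of 27, against 4.67% of the 9095 transcripts.

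Among 48 box C/D snoRNAs, SNORD86 alone was called, with AMI-5 against control, where 10.9% of all genes were called. It had 80, 100 and 148 reads with AMI-1, 132, 73 and 132 with AMI-5, and 113, 107 and 204 in control. In CPM it averaged 5.74 ± 0.19 with AMI-1, 5.56 ± 0.65 with AMI-5 and 7.61 ± 1.17 in control (SD, n = 3 each). SNORD86 fell to 0.726 of the control level with AMI-5 (log2 -0.46 ± 0.12, adjusted p = 0.0214), and AMI-1 gave a similar difference that was not called (log2 -0.41 ± 0.12, adjusted p = 0.196). The AMI-5 call was lost without control replicate 1 or 3 or any AMI-5 replicate, with adjusted p up to 0.270.

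The other box C/D genes gave smaller or less even differences. Over all 48, SNORD86 included, the median log2 fold change was -0.16 with AMI-1 and -0.09 with AMI-5 against control. Of the 48, 14 were lower in 3 of 3 pairs with AMI-1 and 0 higher, where 15.7% of all genes were lower and 14.4% higher. With AMI-5, 14 were lower and 3 higher, where 28.8% of all genes were lower and 24.8% higher. These comparisons share their control libraries, so the counts are not independent. SNORD49A had 6, 24 and 26 reads with AMI-1, 22, 25 and 32 with AMI-5, and 14, 40 and 41 in control, with a log2 fold change of -0.83 ± 0.24 for AMI-1 (adjusted p = 0.183). SNORD80 had 33, 61 and 99 with AMI-1, 63, 67 and 100 with AMI-5, and 47, 87 and 110 in control, and was not called.

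The box C/D genes SNORD49B, SNORD86, SNORD58B, SNORD47, SNORD80 and SNORD22 were 6 of the 10 genes with the highest CPM, which is not divided by length. The other 4 were RN7SL2, SNORA67, SNORA73A and SCARNA9. Apart from SNORD86, none of the 10 was called in any comparison in the fit with the block alone. SNORD49B averaged 5.45 ± 0.48 CPM with AMI-1, 7.01 ± 0.45 with AMI-5 and 6.65 ± 1.63 in control. SNORD58B averaged 5.86 ± 1.03 CPM with AMI-1, 5.63 ± 1.37 with AMI-5 and 6.06 ± 2.23 in control (SD, n = 3 each). SNORD47 averaged 4.14 ± 1.29 CPM with AMI-1, 5.25 ± 2.69 with AMI-5 and 5.25 ± 3.03 in control. Neither was called.

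None of 6 scaRNA rows was called. SCARNA9 had 46, 75 and 55 reads with AMI-1, 66, 52 and 51 with AMI-5, and 41, 44 and 33 in control. In CPM it was higher in 3 of 3 pairs with each compound, with log2 fold changes of 0.52 ± 0.17 with AMI-1 (adjusted p = 0.264) and 0.38 ± 0.17 with AMI-5 (adjusted p = 0.162). The SCARNA17 name stands on 2 rows, 1 of which is the host gene SNHG22 by its identifier.

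Across the 95 genes, summed levels followed the replicate number. They were 133.6, 178.9 and 125.6 CPM in replicates 1, 2 and 3 with AMI-1, 151.1, 194.9 and 139.9 with AMI-5, and 140.9, 189.3 and 139.6 in control. Replicate 2 was the highest in each group. Replicate number held 62.4% of the summed squared deviations among libraries and treatment 20.9%, and 80 of the 95 genes varied more by replicate number. The U3 and U8 genes went the other way, with 7.41% by replicate number and 85.7% by treatment. Of the 4 tested U2, U4 and U7 rows, RNU2-2 and the U7 row went the same way, and RNU4-5P and the U2 row did not. The U3 and U8 genes summed to 2.10, 2.77 and 1.29 CPM with AMI-1, 9.21, 8.05 and 5.998 with AMI-5, and 1.81, 2.60 and 1.90 in control. The 4 rows classed by name under RNA polymerase III, the uncertain RPPH1 row among them, together held 85.2% by replicate number. That share was the larger in 3 of them. Replicate 2 of these rows was at 3.56 to 4.86 CPM, against 7.28 to 17.1 CPM in replicates 1 and 3.

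**Figure D4:**
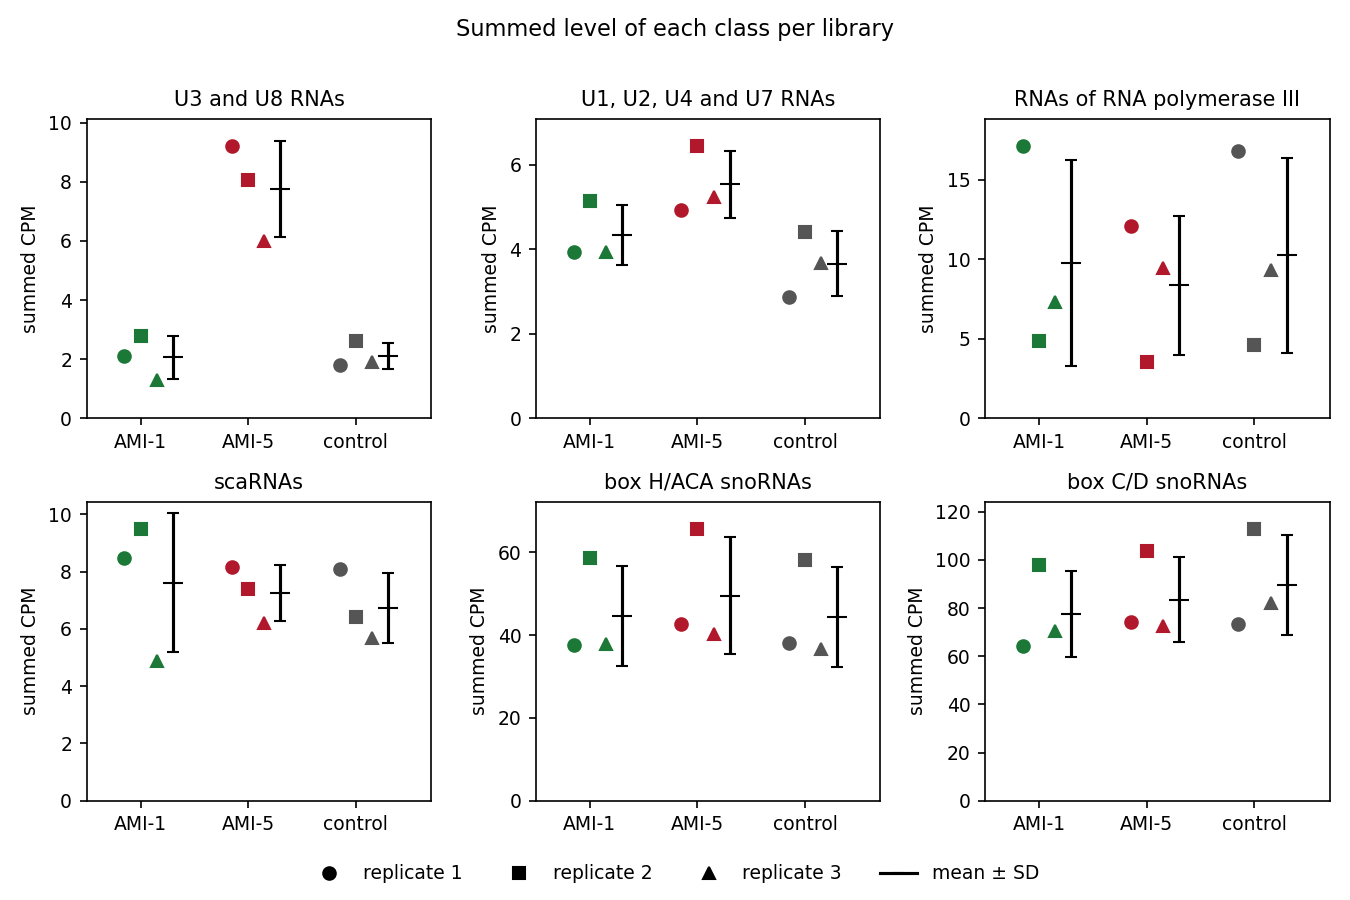
Summed CPM of the tested genes of each class, assigned by row name, in each library, with AMI-1, AMI-5 and control from left to right. Symbols mark replicate numbers and bars the mean ± SD of 3 libraries. The 3 AMI-5 libraries of the U3 and U8 panel, at 5.998 to 9.21 CPM, lie above the other 6, and replicate 2 is the highest in both snoRNA panels and the lowest in the RNA polymerase III panel.

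Host genes were set beside their small RNAs. Of the 98 genes matched in GENCODE 29, 74 overlap an exon of another gene on the same strand, 11 lie within an intron only and 13 have no such gene. An exon of any annotated transcript was counted, here and above, so the same stretch can be intron in other transcripts of that gene. Where such transcripts are present, reads of their exons can be counted for the small RNA. For 79 tested genes with 41 tested hosts, the fold changes had the same sign in 52 for AMI-1 against control, in 54 for AMI-5 against control and in 52 for AMI-5 against AMI-1. Pearson's r over the 79 was 0.420, 0.272 and 0.455. The 79 include SNORD118 with TMEM107 and RNU2-2 with WDR74, which overlap but are not hosts, since U8 and U2 have their own promoters. With AMI-5 against control these small RNAs were at log2 1.26 and 1.80, and the overlapping genes at 0.48 and -0.40. No r was computed without them. These points share libraries, and genes of 1 host share that host's value, so r is given as a description.

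SNHG12, a non-coding host of 4 tested snoRNAs, rose with AMI-5 against control (log2 0.32 ± 0.07, adjusted p = 0.0104) and was higher with AMI-5 than with AMI-1 (log2 0.54 ± 0.07, adjusted p = 0.000235). Its snoRNAs SNORA16A, SNORA44, SNORA61 and SNORD99 had fold changes of 0.12 to 1.33 on the log2 scale between the compounds, all above 0, while against control they were at -0.36 to 0.69, with 2 of 4 above 0. TAF1D, host of SNORA18 and 5 others, was higher with AMI-5 than with AMI-1 (log2 0.26 ± 0.07, adjusted p = 0.0460), and 5 of its 6 small RNAs lay above 0. GAS5, host of 6, was also higher with AMI-5 than with AMI-1 (log2 0.26 ± 0.07, adjusted p = 0.0290), with 5 of 6 above 0. SNHG1, host of 9, was higher in the same comparison (log2 0.21 ± 0.06, adjusted p = 0.0409), with 7 of 9 above 0. Other hosts differed from their small RNAs. EIF4A1, host of 3, was at log2 0.03 in that comparison, and its small RNAs were at -0.37 to 0.01, with 1 of 3 above 0. RPL13 fell with AMI-5 against control (log2 -0.30, adjusted p = 0.0141), while its small RNA SNORD68 was at 0.22.

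NOP56, which encodes a core protein of box C/D particles and hosts SNORD86, had a log2 fold change of -0.18 ± 0.06 with AMI-5 against control (adjusted p = 0.0550). Its 4 small RNAs, SNORD110, SNORD56, SNORD57 and SNORD86, were at -0.81 to -0.19. Between the compounds the host was at 0.0043 and its small RNAs at -0.34 to -0.048. The hosts' part in the counts of their small RNAs was not tested.

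**Figure D5:**
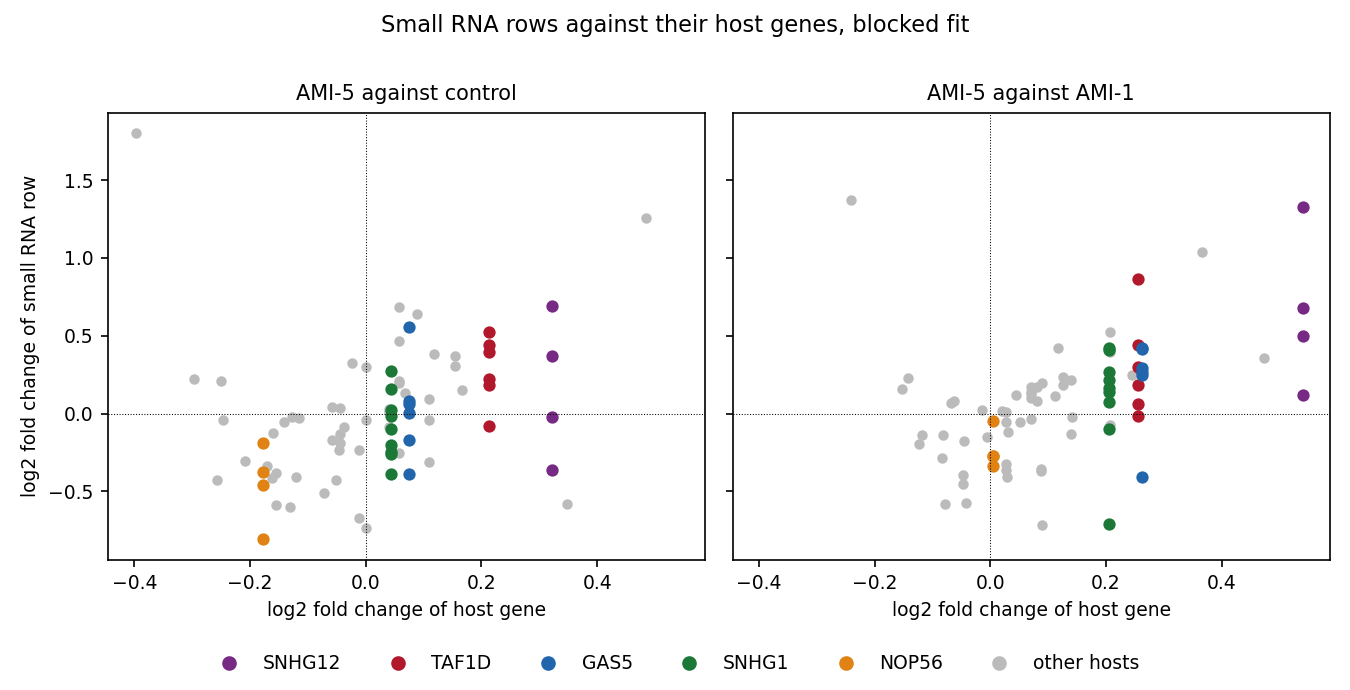
Log2 fold change of each small RNA gene (vertical) against that of its host or overlapping gene (horizontal) for 79 genes, for AMI-5 set against control (left) and against AMI-1 (right), from the blocked fit. Genes of 1 host share a horizontal position; the SNHG12 and TAF1D genes lie to the right, the NOP56 genes lie below 0, and the grey point at the upper left of each panel is RNU2-2 against WDR74.

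Proteins that transcribe, process and carry these RNAs were taken from 10 lists of 128 genes, of which 120 were tested. With AMI-1 none rose or fell against control. With AMI-5, 7 rose and 12 fell against control, where 3.44% of all genes rose and 7.51% fell. Between the compounds 4 were higher and 4 lower with AMI-5, where 1.62% of all genes were higher and 3.48% lower. A list of the Integrator complex, which forms the ends of snRNAs, also held NABP1, NABP2 and ELL, so its counts are not of Integrator subunits alone. This list gave 5 rises and 2 falls among 16 genes with AMI-5 against control, beside those same 3.44% and 7.51% of all genes. INTS2 averaged 27.6 ± 5.2 CPM with AMI-5 and 20.9 ± 4.9 in control (log2 0.40 ± 0.08, adjusted p = 0.00489). NABP1 averaged 55.7 ± 1.5 CPM with AMI-5 and 42.3 ± 8.6 in control (log2 0.42 ± 0.09, adjusted p = 0.00624), and ASUN rose by log2 0.29 ± 0.07 (adjusted p = 0.0127). INTS1 went the other way, at 159.8 ± 58.9 CPM with AMI-5 and 209.9 ± 87.5 in control (log2 -0.38 ± 0.07, adjusted p = 0.00425). CPSF3L also fell (log2 -0.24 ± 0.07, adjusted p = 0.0265), and the remaining rises were INTS7 (log2 0.24 ± 0.07, adjusted p = 0.0252) and INTS3 (log2 0.19 ± 0.06, adjusted p = 0.0406).

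A list for transcription of small RNA genes held 18 genes. Its SNAPc genes SNAPC1 to SNAPC5 and BRF2 were not called with AMI-5 against control, at adjusted p of 0.101 to 0.914. In all, 4 of the 18 fell with AMI-5 and 0 rose against control, where 7.51% of all genes fell and 3.44% rose. They were the TFIIIC subunits GTF3C1 (log2 -0.23 ± 0.06, adjusted p = 0.0139), GTF3C6 (log2 -0.27 ± 0.08, adjusted p = 0.0302) and GTF3C2 (log2 -0.20 ± 0.06, adjusted p = 0.0337), and the TFIIIB subunit BRF1 (log2 -0.28 ± 0.09, adjusted p = 0.0499). Of 8 genes of the 7SK particle and P-TEFb, HEXIM1, the inhibitor of P-TEFb, fell by 0.39 ± 0.07 on the log2 scale (adjusted p = 0.00222) and CDK9, the kinase of P-TEFb, by 0.30 ± 0.07 (adjusted p = 0.00980). None of the 4 box C/D and 4 H/ACA core proteins tested was called.

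The remaining lists held few calls with AMI-5 against control, where 3.44% of all genes rose and 7.51% fell. RPP21, a subunit of RNase P, fell by 0.40 ± 0.09 on the log2 scale (adjusted p = 0.00835), 1 of 11 RNase P and MRP genes. SRP9 rose (log2 0.35 ± 0.08, adjusted p = 0.0131) and SRP68 fell (log2 -0.22 ± 0.06, adjusted p = 0.0176) among 6 proteins of the signal recognition particle. GEMIN6 of the SMN complex, which loads Sm proteins onto snRNAs, rose (log2 0.32 ± 0.10, adjusted p = 0.0428), 1 of 19. WRAP53, which brings scaRNAs to Cajal bodies, fell (log2 -0.25 ± 0.07, adjusted p = 0.0255), 1 of 14 assembly factors. EXOSC10, a nuclear exosome nuclease, fell (log2 -0.21 ± 0.06, adjusted p = 0.0207), 1 of 20 genes of decay and trimming.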

How the data were processed

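Raw read counts per gene are the authors' deposited values, 1 table per compound with shared controls, in which 0 control values differed. The tools BWA and bedtools and the build hg19 are listed in the submitters' processing notes, with no role stated; the versions, annotation and strand setting were not given in the sources used here. The genes and lists were chosen with earlier results of these data known.

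Counts of the 18293 genes in both tables were fitted with edgeR 4.0.16 in R 4.3.3 (quasi-likelihood F test, robust, TMM, filterByExpr), which left 18284 genes in 1 fit of 9 libraries. Replicate number pairs the libraries: deviations from group means correlated at 0.431 to 0.871 in 9 same-number pairs and at -0.804 to 0.204 in 18 others, and 9 of 9 libraries correlated best with their own number. The blocked fit is therefore reported beside the unblocked one. The biological coefficient of variation was 23.7% without the block and 5.64% with it. The fitting code was run on counts simulated from the blocked fit's own means and spread, which cannot show which fit suits these data. CPM used TMM; pair differences used a prior count of 2. Standard errors were derived from log2 fold change and F.

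Of the 115 genes, 77 were matched to GENCODE 29 by identifier and 21 by symbol, 11 to RefSeq by symbol, and 6 were not matched. GENCODE 29 is on GRCh38, so no coordinates are given.

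Named genes follow a rule: RNAs with promoters of their own, the 10 highest by CPM, all called genes, the 3 largest consistent rises and falls per comparison among genes averaging at least 50 reads, single-table genes, the 3 lowest row means per table, host genes, and up to 4 proteins per list by adjusted p. Others were chosen after their values were seen. Alternatives were DESeq2 1.42.0 size factors and Wald test, no filter, only the groups compared, a GC correction (lowess span 0.3), each library left out, and every matching row counted.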

Additional observations from a re-analysis of the deposited data

How the results depend on the processing

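Fits without the block called 0 of the 95 genes under DESeq2 size factors in edgeR, no filter, only the groups compared, every matching row and each library left out, while DESeq2's Wald test called 1 for AMI-5 against control, where 36 of the 95 had an adjusted p, and 1 for AMI-5 against AMI-1. With only the groups compared, 90 of the 95 passed the filter in the AMI-1 comparison with control, 92 in the AMI-5 one and 93 between the compounds. The replicate block gave 0 calls for AMI-1 against control, 4 for AMI-5 against control and 6 for AMI-5 against AMI-1, and with DESeq2 size factors, an alternative chosen after seeing the data, it gave 4 and 6 in the AMI-5 comparisons. DESeq2 with the block gave no adjusted p for any of the 95 genes, since its filter on mean counts set all of them to NA. The block with GC correction gave 2, 4 and 6. The 2 were SNORD49A (log2 -0.85, adjusted p = 0.0434) and RN7SL2 (log2 -0.54, adjusted p = 0.0435), both lower with AMI-1, where 3.48% of all genes were called. GC content was known for 97.5% of genes and 85.3% of the 95. With each library left out of the blocked fit, calls ran from 0 to 1 for AMI-1 against control, from 3 to 8 for AMI-5 against control and from 2 to 11 for AMI-5 against AMI-1. Calls over all genes also varied widely in these fits, from 14 to 354, from 155 to 4283 and from 192 to 3465. Between 18281 and 18293 genes were tested. For AMI-5 against control, dropping AMI-1 replicate 3 gave 8 calls, dropping the second control library 6, and dropping AMI-1 replicate 2 or AMI-5 replicate 3 gave 5. Over all genes those fits gave 4283, 1748, 2969 and 2900 calls, in that order. For AMI-5 against AMI-1, dropping AMI-5 replicate 1 gave 2 calls, AMI-1 replicate 1 gave 3, AMI-5 replicate 2 gave 4, and AMI-1 replicate 3 gave 11. The matching calls over all genes were 192, 194, 292 and 3465. The single call of AMI-1 against control came on dropping AMI-5 replicate 3, where 159 of all genes were called. The 3 rises with AMI-5 against control held in 9 of 9 such fits, and SNORD86 in 4. Without 1 library and without the block, the median log2 fold change of the 95 ran from -0.30 to 0.14 for AMI-1 against control, from -0.23 to 0.11 for AMI-5 against control and from -0.0885 to 0.24 for AMI-5 against AMI-1. Among genes averaging at least 50 reads the median was -0.17 for AMI-1 against control and 0.22 for AMI-5 against AMI-1. RN7SL2 with AMI-1 against control was -0.63 without the block and ran from -1.39 to 0.051 with 1 library left out, with the change of sign without control replicate 1. In the blocked fits with 1 library left out it ran from -0.90 to -0.42, below 0 in 9 of 9. The cause was not tested. Low counts limit precision: the median standard error of a log2 fold change was 0.26 in the blocked fit of AMI-5 against control.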
